A study of Danio rerio with 15 samples.

Results

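Zebrafish brain tumors held more transcript of an NK-lysin, of the B cell receptor and of T cell receptor kinases than normal zebrafish brain, and the NK-lysin nkl.2 varied far more from tumor to tumor than the lymphocyte genes did. The set described here is 10 genes named by symbol: the NK-lysins nkl.1, nkl.2, nkl.3 and nkl.4, the T cell receptor kinases lck and zap70, the interleukin receptor chain il2rb, and the B cell receptor genes ighm, cd79a and blnk. Of the 10 symbols, 9 had an Ensembl ID among the 22513 genes of the deposited table. The symbol table pairs no ID with nkl.1, which was not analysed here. The genes were chosen with their difference between tumor and normal brain already known, so that difference is given as a description, without a p-value.

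NK-lysins are small saposin-like proteins stored in the granules of natural killer cells and cytotoxic T cells, where they disrupt the membranes of target cells and microbes. T cells signal through the T cell receptor by the Src-family kinase Lck, which phosphorylates the receptor complex and activates the kinase Zap70 bound to it. B cells signal through surface immunoglobulin, whose heavy chain of the IgM class is encoded by ighm, with Cd79a as a signalling subunit and Blnk as the adaptor that links the receptor to downstream enzymes. Zebrafish have T cells, B cells and NK-like cells, and the last express NK-lysins, perforins and, in teleosts, a family of immune-type receptors (NITR).

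Polyadenylated RNA was sequenced from 7 brain tumors, which the submitters describe as NRAS-driven tumors of the CNS-PNET type (a primitive neuroectodermal tumor that arises in the central nervous system), and from 8 whole normal brains. NRAS is a small GTPase of the Ras family. What drives NRAS in the tumors, and the strain, age and genotype of both groups of fish, was not given in the sources used here. Whether each library came from its own fish is not stated in the labels either, and p-values therefore measure only the spread between these samples.

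The libraries, numbered as in the labels, held 13605588 to 21347976 counts in brain tumors and 14013245 to 18239799 in normal brains. A count of 3 was used as the upper limit for genes with no counts, counting error only. By raw library totals it equals 0.141 to 0.220 counts per 1000000 (CPM) in brain tumors and 0.165 to 0.214 CPM in normal brains. All other CPM values use library sizes scaled by the TMM factors of edgeR, on which 3 counts were 0.221 CPM in tumor 13. The 11 neuronal marker IDs were all lower in tumors, with summed levels of 475 to 2230 CPM in tumors and 8084 to 9620 CPM in normal brains. Normal brain 1 carried 7315 CPM of liver transcripts, normal brain 2 carried 87.3 CPM of photoreceptor transcripts, normal brain 4 carried 4278 CPM of keratin and other skin transcripts, and brain tumor 12 carried 1323 CPM of the skin transcripts. Without these 3 normal brains and brain tumor 13, which stood apart from the other tumors, the log2 fold change was 9.89 for nkl.2, 1.31 for lck, 0.72 for il2rb, which was still not called, and 5.39 for ighm.

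nkl.2 (ENSDARG00000058673) was the member with the widest range. Its level was 23.3 CPM in brain tumor 5, 7.98 in tumor 6, 2.39 in tumor 7, 1652 in tumor 8, 159 in tumor 12, 35.4 in tumor 13 and 49.1 in tumor 14, against 0.120 to 0.919 CPM in the 8 normal brains, with a median of 0.463. Every tumor was above every normal brain, and tumor 8 stood an order of magnitude above the next tumor.

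The total was 33039 counts of nkl.2 in the tumors, of which 27994 came from tumor 8, and 60 counts in the normal brains. The mean was 276 ± 609 CPM in brain tumors and 0.446 ± 0.296 CPM in normal brains (SD, n = 7 and 8), and the tumor mean was 46.2 ± 57.9 CPM without tumor 8. The log2 fold change, tumor over normal, was 9.24 ± 1.44 (SE) in edgeR, 6.57 without tumor 8, 6.28 in DESeq2 and 5.90 in the authors' deposited table.

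By level per kilobase (FPKM), nkl.2 was among the most abundant transcripts of tumor 8. It ranked 40 of 22513 genes there and took 0.172% of all counts. Its rank was 503 in tumor 12, 1786 in tumor 14, 3148 in tumor 13, 4121 in tumor 5, 9285 in tumor 6 and 13941 in tumor 7, against 17358 to 20556 in the normal brains.

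nkl.4 (ENSDARG00000044023) had the same tumor on top at a lower level. It measured 65.2 CPM in tumor 8, 3.90 in tumor 12, 1.74 in tumor 5, 1.45 in tumor 14, 1.03 in tumor 13, 0.726 in tumor 7 and 0.366 in tumor 6, against 0 to 0.372 CPM in normal brains. Tumor 6 alone lay within the range of the normal brains. The counts summed to 1266 in tumors, of which 1105 came from tumor 8, and 18 in normal brains. The mean was 10.6 ± 24.1 CPM in tumors, or 1.54 ± 1.26 CPM without tumor 8, and 0.133 ± 0.115 CPM in normal brains (SD, n = 7 and 8). The gene did not pass the filter on low counts, and the log2 fold change without that filter, all tumors included, was 6.23 ± 1.22 (SE) in edgeR, 3.15 in DESeq2 and 2.98 in the authors' deposited table.

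nkl.3 (ENSDARG00000089202) was close to the counting limit. Its level was 2.24 CPM in tumor 8 and 0.146 to 0.516 CPM in the other tumors, against 0 to 0.342 CPM in normal brains, from 73 counts in tumors and 15 in normal brains. The tumor mean was 0.611 ± 0.734 CPM, or 0.339 ± 0.161 CPM without tumor 8, and the normal brain mean was 0.116 ± 0.110 CPM. Tumors 5, 8, 12 and 14 were above every normal brain, and tumors 6, 7 and 13 were within their range. The log2 fold change without the filter was 2.34 ± 0.68 (SE).

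nkl.2 made up nearly all counts of the 3 NK-lysins where these were plentiful. Its share was 96.1% in tumor 8 (exact 95% Clopper-Pearson interval 95.8% to 96.3%, counting error only) and 97.3% in tumor 12 (96.7% to 97.9%). It was 71.7% in tumor 7 (56.5% to 84.0%), which held 46 NK-lysin counts. The normal brains held 4 to 22 NK-lysin counts each, too few for a share to be read. In the RefSeq annotation of assembly GRCz12tu nkl.4, nkl.3, nkl.2 and nkl.1 lie next to each other with 0 genes between neighbours. How reads of 50 bases that match several of them were counted was not given in the sources used here, so the split among the copies is uncertain.

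**Figure D1:**
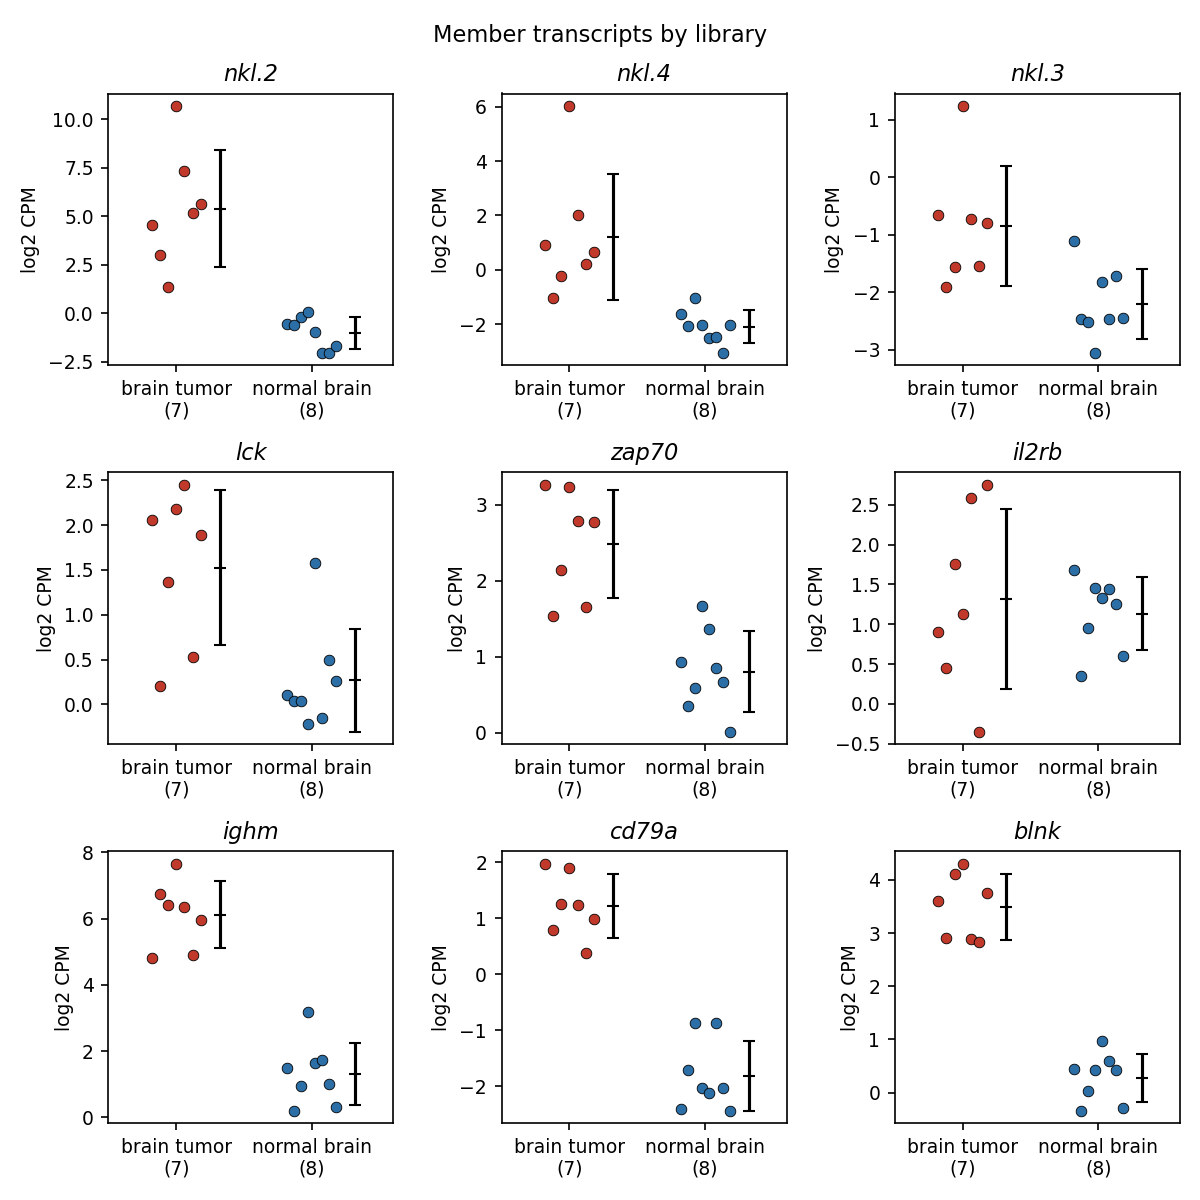
Log2 CPM of each member in each of the 7 brain tumors (left) and 8 normal brains (right), 1 point per library, with a bar for the mean and SD of log2 CPM beside each group. The highest nkl.2, nkl.3 and nkl.4 values are all brain tumor 8, at 1652, 2.24 and 65.2 CPM on the linear scale, and the points of il2rb overlap between the groups.

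Some other genes of cytotoxic granules and receptors stood high in the same tumor. Among these genes, which were chosen after their values were seen, the perforin prf1.9, a pore-forming granule protein, measured 51.3 CPM in tumor 8 and at most 4.77 CPM in the other tumors, against 0.0685 to 0.361 CPM in normal brains. ifng1, the cytokine interferon gamma, measured 3.84 CPM in tumor 8 and at most 0.681 CPM in the other tumors, and faslg, the Fas ligand, 3.3 CPM and at most 0.641 CPM. nitr10a, an NITR, measured 3.60 CPM in tumor 8 and at most 1.725 CPM in the other tumors. It had 176 counts over the tumors and 0 over the 8 normal brains. Other NITR genes were not highest there: nitr3a measured 0.118 CPM in tumor 8 and 1.044 CPM in tumor 14, and nitr3b 0.059 and 0.636 CPM.

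Tumor 8 was not highest for every cytotoxic gene. It was the highest tumor for 8 of the 19 cytotoxic effector genes found and for 4 of the 11 NITR and DICP genes. The perforin prf1.2 was at 7.95 CPM in tumor 12 and 6.61 CPM in tumor 8. Tumor 8 was also the highest tumor for 8 of 10 pan-leukocyte genes and for 10 of 11 neuronal marker IDs, and the part of either in its NK-lysin level was not tested. The share of all genes that were highest in tumor 8 was not computed, so nothing is read from these counts. When 11434 genes with at least 10 CPM in tumor 8 and a count in another tumor were ranked by the ratio of tumor 8 to the highest other tumor, nkl.4 ranked 2 at a ratio of 16.7, prf1.9 ranked 6 at 10.8 and nkl.2 ranked 7 at 10.4.

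**Figure D2:**
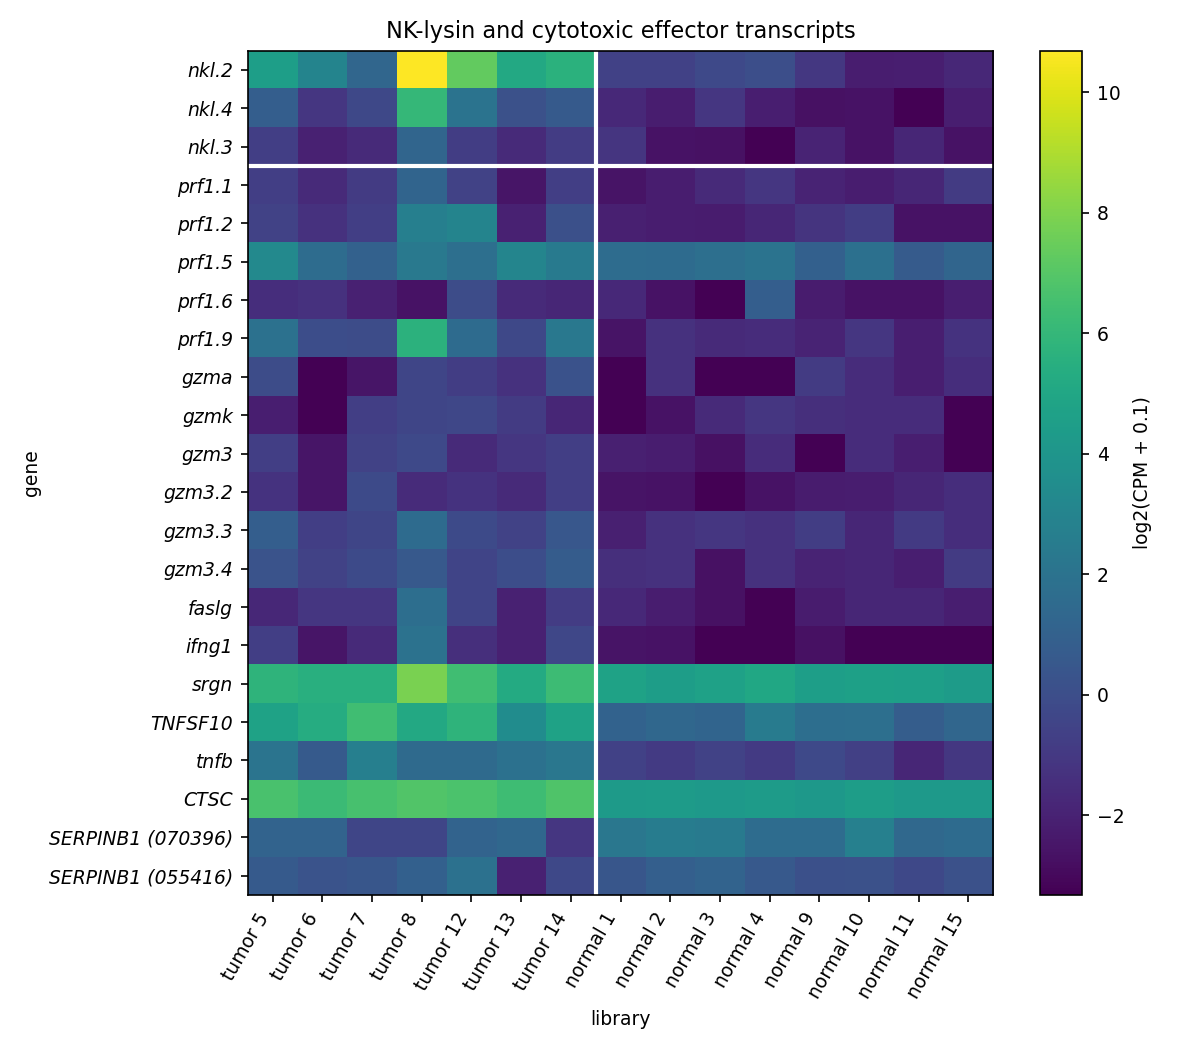
Levels of NK-lysin and cytotoxic effector genes (rows) in each library (columns, tumors left of normal brains), as log2 of CPM plus 0.1. Brighter cells are higher levels: tumor 8 is brightest for nkl.2 (1652 CPM) and prf1.9 (51.3 CPM), while prf1.2 is highest in tumor 12 (7.95 CPM).

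The T cell receptor kinases were higher in tumors by smaller amounts and with partly overlapping values. zap70 (ENSDARG00000015752) measured 2.78 to 9.48 CPM in tumors with a median of 6.72, against 0.886 to 3.06 CPM in normal brains with a median of 1.58, and 5 of 7 tumors were above every normal brain. Its mean was 6.05 ± 2.77 CPM in tumors and 1.73 ± 0.710 CPM in normal brains (SD, n = 7 and 8), with a log2 fold change of 1.8 ± 0.32 (SE).

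lck (ENSDARG00000102525) measured 4.06, 1.02, 2.47, 4.42, 5.34, 1.33 and 3.59 CPM in tumors 5, 6, 7, 8, 12, 13 and 14, against 0.735 to 2.88 CPM in normal brains with a median of 0.934. The highest normal value was that of normal brain 9, and 4 of 7 tumors were above it. The mean was 3.18 ± 1.62 CPM in tumors and 1.19 ± 0.702 CPM in normal brains, with a log2 fold change of 1.41 ± 0.38 (SE), or 1.73 without normal brain 9. Within libraries 9 to 15 alone lck had a log2 fold change of 1.05 and was not called.

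il2rb (ENSDARG00000075720), the receptor chain shared by interleukins of the IL-2 and IL-15 type, did not separate the groups. It measured 1.74, 1.24, 3.27, 2.06, 5.87, 0.663 and 6.58 CPM in tumors 5, 6, 7, 8, 12, 13 and 14, against 1.15 to 3.08 CPM in normal brains with a median of 2.33. Tumors 7, 12 and 14 were above every normal brain, and the other 4 were below the normal median. The log2 fold change was 0.51 ± 0.41 (SE), did not pass the threshold, and ran from -0.07 in libraries 1 to 8 to 0.89 in libraries 9 to 15.

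The B cell receptor genes separated the groups completely. ighm (ENSDARG00000096355) measured 27.8 to 201 CPM in tumors with a median of 81.5, against 1.03 to 9.01 CPM in normal brains with a median of 2.28. Tumor 8 was highest, followed by tumor 6 at 108 CPM, and the highest normal brain was normal brain 4. The mean was 85.0 ± 59.1 CPM in tumors and 2.97 ± 2.57 CPM in normal brains, with a log2 fold change of 4.84 ± 0.54 (SE).

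cd79a (ENSDARG00000037473) measured 1.18 to 3.80 CPM in tumors, against 0.0633 to 0.425 CPM in normal brains, from 272 counts in tumors and 26 in normal brains. Its log2 fold change was 3.57 ± 0.41 (SE). blnk (ENSDARG00000042722) measured 6.99 to 19.6 CPM in tumors with a median of 12.1, against 0.667 to 1.85 CPM in normal brains, with a log2 fold change of 3.38 ± 0.29 (SE). Neither gene had a tumor within the range of the normal brains, and in both tumor 13 was the lowest tumor.

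Per kilobase, the order of the members changed between the tissues. In tumors the median level was highest for nkl.2 at 24.4 FPKM and ighm at 20.0 FPKM, followed by blnk at 3.26, cd79a at 2.80, zap70 at 2.61, nkl.4 at 2.45, lck at 1.75, nkl.3 at 0.743 and il2rb at 0.491 FPKM. Neighbours in this order had overlapping ranges over the tumors, except ighm at 6.80 to 58.3 FPKM and blnk at 1.58 to 5.61 FPKM. In normal brain ighm at 0.652, zap70 at 0.625, il2rb at 0.545, lck at 0.457 and nkl.2 at 0.403 FPKM lay close together, and the ranges of these 5 genes over the normal brains overlapped.

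Of the 9 members 7 passed the filter on low counts, and 6 of these 7 were called higher and 0 lower, where 43.5% of the 19260 tested genes were called higher and 33.4% lower (edgeR quasi-likelihood test, Benjamini-Hochberg adjusted p below 0.05). Every tumor was above every normal brain for 4 of the 7, where this held for 27.2% of tested genes, and every tumor was below every normal brain for 0 of the 7, where this held for 24.6%. Without normal brains 1, 2 and 4 and tumor 13, 7 members were called higher, nkl.4 among them, since it then passed the filter. The members were picked on this comparison, so nothing is read from these counts. In bulk tissue, fewer or more cells of a type and less or more RNA per cell cannot be told apart.

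Transcripts of leukocytes as a whole were also higher in the tumors. All 10 pan-leukocyte genes passed the threshold upward, with summed levels of 287 to 973 CPM in tumors and 95.9 to 159 CPM in normal brains and none at 0 in all normal brains. ptprc, which encodes the leukocyte surface phosphatase CD45, averaged 55.2 ± 24.1 CPM in tumors and 20.5 ± 5.24 CPM in normal brains (log2 fold change 1.43 ± 0.25). Each member was therefore also expressed per 100 CPM of ptprc, a ratio added after the data had been seen.

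The members differed in how far they exceeded normal brain on that scale. lck had a median of 4.78 in tumors and 5.44 in normal brains, and zap70 10.9 in tumors and 7.72 in normal brains, with overlapping ranges. il2rb had a median of 3.87 in tumors and 9.96 in normal brains, and 5 of 7 tumors were below the normal median. ighm had a median of 140 in tumors and 9.68 in normal brains, with 6 of 7 tumors above every normal brain and tumor 5, at 42.8, below normal brain 4, at 49.3.

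Only cd79a and blnk, among the 9 members, had every tumor above every normal brain per ptprc, which held for 2.77% of 19259 tested genes. Those tested genes do not include nkl.3 and nkl.4, which did not pass the filter. The members were picked on the difference between tumor and normal brain, so nothing is read from this count. cd79a ranged from 3.09 to 5.85 in tumors and 0.327 to 1.98 in normal brains, and blnk from 17.0 to 28.6 in tumors and 4.20 to 6.71 in normal brains. Per 100 CPM of the summed pan-leukocyte list, blnk alone of the 9 had groups that did not overlap. The medians of lck, zap70 and il2rb were then 0.463, 1.05 and 0.347 in tumors and 0.834, 1.15 and 1.59 in normal brains. By medians zap70 was thus higher in tumors per ptprc and lower per the summed list. nkl.2 had a median of 81.6 in tumors and 1.95 in normal brains per 100 CPM of ptprc, and tumor 7, at 3.98, was the 1 tumor within the normal range.

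**Figure D3:**
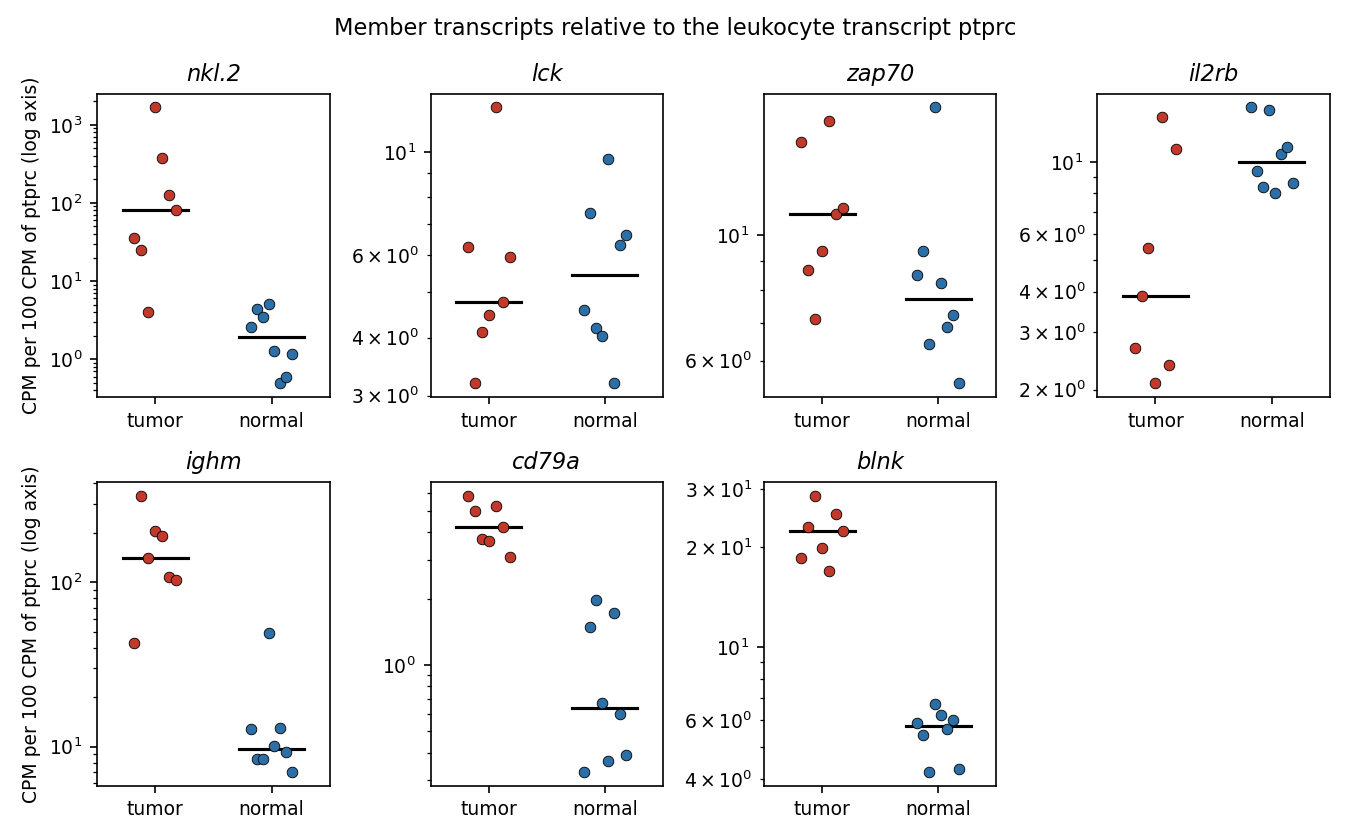
CPM of each plotted member per 100 CPM of ptprc on a log axis, in the 7 brain tumors (left of each panel) and 8 normal brains (right), with a line at each median. The groups separate for cd79a (3.09 to 5.85 in tumors, 0.327 to 1.98 in normal brains) and blnk, and overlap for lck, zap70 and il2rb.

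Among the 7 tumors, the strongest relations were between the kinases lck and zap70 and between the NK-lysins nkl.2 and nkl.4. All 28 pairs of the 8 members averaging 1 CPM or more in tumors had a positive Pearson correlation of log2 CPM, from 0.11 to 0.93 with a median of 0.50. By exact two-sided permutation over 7 tumors, 0 passed an adjusted p below 0.05 over the 28 pairs, and 3 had an unadjusted p below 0.05.

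lck and zap70 had r = 0.93 and rho = 0.86 (exact permutation p = 0.00476 for r, adjusted p = 0.0667), and r = 0.71 without tumors 6 and 13. nkl.2 and nkl.4 had r = 0.92 and rho = 0.86 (exact permutation p = 0.00317, adjusted p = 0.0667), and r = 0.92 without tumors 7 and 8. Per 100 counts of nkl.2, nkl.4 had 30.3 counts in tumor 7 and 2.45 to 7.48 in the other tumors. The split of reads between these neighbouring copies is uncertain, and its part in this correlation was not tested. zap70 and cd79a had r = 0.87 and rho = 0.86 (exact permutation p = 0.0133, adjusted p = 0.124), and r = 0.73 without tumors 6 and 13.

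Weaker relations changed with single tumors. ighm and cd79a, both parts of the B cell receptor, had r = 0.24 over 7 tumors, 0.87 without tumor 5, -0.17 without tumor 8 and -0.15 without tumor 13. nkl.2 and ighm had r = 0.40, and -0.26 without tumor 8. Of the 28 pairs, 8 turned negative without tumor 8, 5 without tumor 13 and 10 with one or the other left out.

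**Figure D4:**
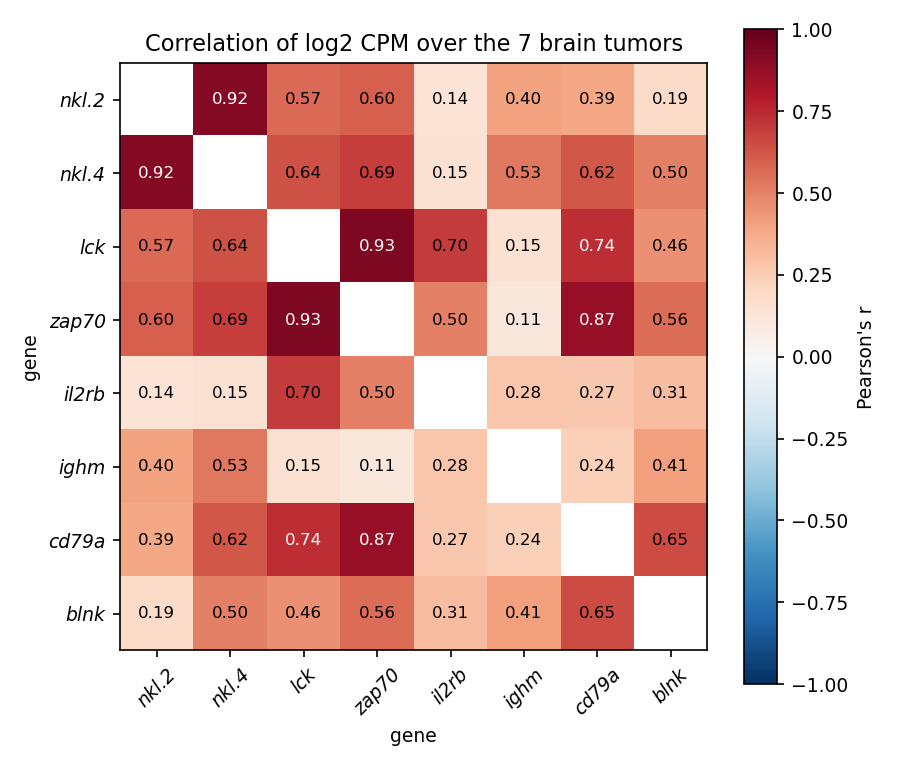
Pearson correlation of log2 CPM over the 7 brain tumors for the 8 members averaging 1 CPM or more, both axes listing genes. All 28 pairs are positive, the highest being lck with zap70 (0.93) and nkl.2 with nkl.4 (0.92), and none passed the adjusted threshold.

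Across 18279 genes that averaged 1 CPM or more in tumors, the patterns most like lck over the 7 tumors were ENSDARG00000104132 and ENSDARG00000075807, which have no symbol and identical counts in all 15 libraries (r = 0.985), and cd4-1, the T helper coreceptor (r = 0.984). Those most like nkl.2 were lamp3 (r = 0.985), edaradd (r = 0.979) and si:dkey-78l4.4 (r = 0.976). In tumor 7 lamp3 and si:dkey-78l4.4, at 0.145 and 0.0726 CPM, lay below the limit of 3 counts. Those most like cd79a were CSTPP1 (r = 0.979), syne2b (r = 0.973) and sesn2 (r = 0.957). CSTPP1 and syne2b were lower in every tumor than in every normal brain, while cd79a was higher. All these genes were taken as the highest of 18279 correlations over only 7 tumors. How high a correlation chance alone would give was not tested, so nothing is read from their identity.

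Other genes of T cell receptor signalling rose in tumors in 11 of 17 tested, fell in 1 and did not pass in 5. Their median log2 fold change was 1.09, where the median over all tested genes was 0.21. For this list and those below, the share over all 19260 tested genes was 43.5% higher and 33.4% lower. The lists were chosen with earlier results known, and a gene can pass the filter on low counts through its tumor levels alone. Nothing is therefore read from the counts and medians of these lists. The genes named with an adjusted p-value were picked for their large change in this same comparison. Their p-values are therefore a description, and nothing is read from how small they are. lcp2a, the adaptor SLP-76, rose to 12.9 ± 7.29 CPM in tumors, against 2.48 ± 0.528 CPM in normal brains (log2 fold change 2.37 ± 0.28, edgeR adjusted p = 1.1e-06). cd4-1 rose by a log2 fold change of 2.23 ± 0.50 (edgeR adjusted p = 0.000776), with 1.1 to 3.84 CPM in tumors and 0.137 to 2.06 CPM in normal brains, the highest being normal brain 9. CSK, the kinase that inhibits Lck, fell by 0.67 on the log2 scale.

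The coreceptor genes cd8a and cd8b did not pass the filter, at 0.146 to 2.39 CPM and 0.146 to 2.5 CPM in tumors, against 0 to 1.79 CPM and 0 to 0.977 CPM in normal brains. cd28l, PRKCQ, sla2b, tnfrsf9a and ptpn22 did not pass the threshold, with log2 fold changes of 0.17, -0.30, 0.46, -0.27 and 0.02. The summed level of the list was 130.0 to 290 CPM in tumors and 162 to 194 CPM in normal brains. Of these sums CSK alone held 35.63 to 85.81 CPM in tumors and 83.35 to 97.55 CPM in normal brains. ptpn22 held 34.29 to 45.57 CPM in tumors and 30.3 to 45.55 CPM in normal brains. Whether the transcripts of CSK and ptpn22 came from T cells was not tested, so nothing is read from the sums. In libraries 9 to 15 alone, 4 genes of the list rose. This smaller subset holds tumors 12, 13 and 14 and normal brains 9, 10, 11 and 15. The share of all genes that rose in the subset was not compared, so nothing is read from that count.

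Of 19 cytotoxic effector genes found, 7 were tested, of which 5 rose, 1 fell and 1 did not pass. The genes not tested included every granzyme found, faslg, ifng1 and every perforin found except prf1.5. TNFSF10, the death ligand TRAIL, rose by a log2 fold change of 3.80 ± 0.38 (edgeR adjusted p = 1.94e-07) to 40.2 ± 24.2 CPM in tumors, against 2.88 ± 1.24 CPM in normal brains. tnfb, a tumor necrosis factor, rose by 2.91 ± 0.32, CTSC, the protease that activates granzymes, by 2.33 ± 0.11, srgn, the granule proteoglycan serglycin, by 1.75 ± 0.33 and prf1.5 by 0.90 ± 0.32. Whether the transcripts of these 5 genes came from cytotoxic lymphocytes was not tested. SERPINB1 (ENSDARG00000070396), a serine protease inhibitor, fell by 1.49 on the log2 scale, and its other copy, at 0.20, did not pass. Without the filter on low counts 14 genes of the list rose.

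The NITR and the related DICP receptors had 11 genes in the table and 3 tested. dicp3.1 rose by a log2 fold change of 2.85 ± 0.34 (edgeR adjusted p = 1.4e-06), while dicp1.1 and dicp3.3 had log2 fold changes of 1.14 and 1.91 and did not pass. Without the filter 5 of the genes rose. Of the receptors and signalling proteins of the common gamma chain cytokines, 9 of 12 tested rose and 0 fell, and the median log2 fold change was 1.87.

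il4r.1, a receptor chain for interleukin 4, rose by 2.87 ± 0.27, il15ra, the chain that presents interleukin 15, by 2.64 ± 0.29, the kinase jak3 by 2.57 ± 0.32 and the common gamma chain il2rga by 2.13 ± 0.27 on the log2 scale. The ligands il15 and il15l and the transcription factor stat5a had log2 fold changes of 0.48, 0.16 and 0.13 and did not pass. il2rb, whose product pairs with the common gamma chain, did not pass and il2rga did; the difference between them was not tested.

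Of the other genes on the B cell list 9 of 17 tested rose, 3 fell and 5 did not pass. Over all tested genes 43.5% rose and 33.4% fell. The list was chosen with earlier results known, so nothing is read from these counts. cd37, a tetraspanin of B cells, rose to 3.81 ± 1.54 CPM in tumors, against 0.383 ± 0.413 CPM in normal brains (log2 fold change 3.31 ± 0.48, edgeR adjusted p = 1.15e-05). grap2b, an adaptor, rose by 2.51 ± 0.27, the B cell kinase blk by 2.46 ± 0.35 and BTK by 2.26 ± 0.33 on the log2 scale. Neither grap2b nor BTK is confined to B cells, and the part of other leukocytes in these rises was not tested. cd79b, the partner of Cd79a, did not pass the filter and measured 0.320 to 2.71 CPM in tumors, against 0 to 0.253 CPM in normal brains.

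Transcription factors of the list went both ways. PRDM1 rose by 2.41 ± 0.35 and XBP1 by 1.08 ± 0.20 on the log2 scale, both of which act in plasma cells. XBP1 averaged 111 CPM in normal brains, where ighm averaged 2.97 CPM. PAX5, which fixes B cell identity, fell by 1.7, POU2F2 by 3.26 and BACH2 by 0.36 on the log2 scale. In normal brains these 3 averaged 1.93, 23.0 and 19.2 CPM, where cd79b averaged 0.119 CPM. Whether the transcripts of PRDM1, XBP1 or these 3 genes came from B cells or plasma cells was not tested. SYK, CXCR5, IRF4, RAG1 and RAG2 did not pass, with log2 fold changes of -0.46, -0.35, 0.70, -0.38 and 0.22. The related gene irf4b did not pass the filter on low counts. It measured 0.589 to 3.95 CPM in tumors, against 0.0613 to 0.361 CPM in normal brains. RAG1, which cuts antigen receptor genes during lymphocyte development, measured 8.38 CPM in tumor 5 and 9.93 CPM in normal brain 9.

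Of 13 lymphoid transcription factors tested, 5 rose and 6 fell, where 43.5% of all tested genes rose and 33.4% fell. tbx21, the T-bet factor of cytotoxic and helper lymphocytes, rose by a log2 fold change of 2.41 ± 0.52 (edgeR adjusted p = 0.000532) and was highest in tumor 8 at 6.90 CPM. RUNX3 rose by 2.42 ± 0.38, ETS1 by 1.41 ± 0.22, IKZF1 by 1.25 ± 0.34 and foxp3a by 0.93 ± 0.32. EOMES (ENSDARG00000104243) fell by 4.12 and bcl11ba by 3.61 on the log2 scale, both of which also act in developing neurons, and rorc and tox2 did not pass, at -0.24 and -0.19. GATA3 and LEF1, also among the genes that fell, averaged 103 and 73.8 CPM in normal brains, and their cell source was not tested.

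**Figure D5:**
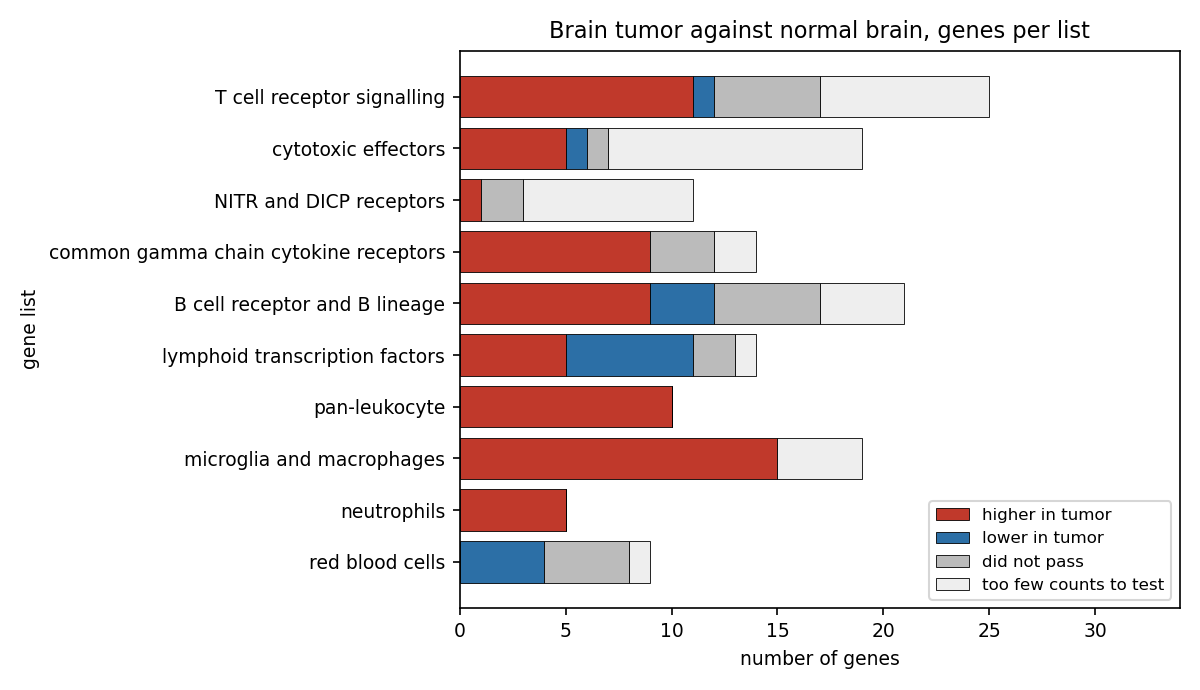
Number of genes in each list, by outcome (higher, lower, not past the threshold or not tested) in brain tumor against normal brain. All 10 pan-leukocyte genes and all 5 genes of the neutrophil list are higher. The lymphoid transcription factors divide into 5 higher and 6 lower, where 43.5% of all tested genes were higher and 33.4% lower.

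Markers of other blood cells moved with the tumors as well. All 15 tested genes of microglia and macrophages rose, with summed levels of 1862 to 3966 CPM in tumors and 558 to 852 CPM in normal brains and no gene at 0 in all normal brains. c1qc, a complement subunit made by microglia, rose by a log2 fold change of 4.37 ± 0.28 (edgeR adjusted p = 1.37e-09). All 5 genes of the neutrophil list rose, with summed levels of 25.7 to 120 CPM in tumors and 32.3 to 55.9 CPM in normal brains. Of these sums nccrp1 alone held 16.8 to 79.7 CPM in tumors and 28.5 to 35.7 CPM in normal brains. Whether nccrp1 marks neutrophils here was not tested. Of 8 tested red blood cell genes 0 rose and 4 fell, with summed levels of 75.8 to 322 CPM in tumors and 264 to 423 CPM in normal brains. What part microglia, macrophages or other leukocytes have in the levels of the members was not tested.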

How the data were processed

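Libraries were made with oligo dT selection and sequenced as single reads of 50 cycles, per the labels. The submitters' processing notes name Novoalign 2.08.01 and DESeq2. Which read counter, genome build and annotation served was not given in the sources used here, so no coordinates are printed. The deposited table gives whole read counts per gene, the authors' FPKM, their log2 fold change and their adjusted p-value. Genes summing to under 10 counts are not analysed here.

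Counts were fitted with edgeR 4.0.16 (R 4.3.3): filterByExpr (minimum count 10, minimum total 15), TMM scaling, the quasi-likelihood test with the group as the only term, and Benjamini-Hochberg adjustment over 19260 genes at 0.05. CPM and log2 CPM used the TMM-scaled library sizes, and log2 CPM used a prior count of 2. Alternatives were DESeq2 1.42.0, limma 3.58.1 (voom), RLE factors, library size alone, no filter, another prior count, subsets of libraries and each library left out. On simulated data with 50 genes changed at each fold, the fit recovered 16% at 1.5-fold, 54% at 2-fold and 94% at 4-fold, and called 4 of 18894 unchanged genes. Few genes were changed there, up and down alike, where in these data 43.5% were called higher and 33.4% lower. The simulation therefore cannot show how the scaling performs on these data.

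The members and lists were chosen with earlier results of these data known. Named were all members, the 2 largest changes past the threshold in each direction per list at a mean of at least 1 CPM, genes of groups of 5 or fewer, and the 3 genes most like lck, cd79a and nkl.2; other genes named were chosen after their values were seen. Not every gene this rule gives for the marker lists of other tissues is printed.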

Additional observations from a re-analysis of the deposited data

Results flagged for a closer look

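Each member was checked in each group for a library far from the others by Dixon's test at the 95% level, 18 groups in all, where chance alone flags about 1 in 20 groups. A gap of more than 0.568 of the range in the 7 tumors, or 0.526 in the 8 normal brains, was required, and 3 groups met it.

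nkl.4 stood at 6.03 log2 CPM in brain tumor 8, where the next tumor was at 2.01, a gap of 0.569 of the range. nkl.3 stood at 1.24 log2 CPM in the same tumor, where the next was at -0.65, a gap of 0.602 of the range. nkl.2 was also highest in that tumor but did not meet the limit. lck stood at 1.58 log2 CPM in normal brain 9, where the next normal brain was at 0.49, a gap of 0.604 of the range. That library also had the highest normal levels of RAG1, at 9.93 CPM, and cd8a, at 1.79 CPM.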

How the results depend on the processing

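Under the alternatives run, the uncalled il2rb changed sign (-0.07 to 0.89), as did 10 uncalled correlations with 1 tumor left out, and no called value did. No paired analysis was possible because the labels give no pairing of tumors with normal brains. The number of members called higher was 6 and ran from 6 to 8, and that of all genes from 6350 to 9350 higher and from 5781 to 7970 lower (7561 to 8485 and 6240 to 6903 with each library left out). In libraries 9 to 15 alone 4 T cell receptor genes rose and 0 fell. There 0 cytotoxic genes fell, 2 NITR and DICP genes rose and 2 lymphoid transcription factors rose. The part of the smaller number of libraries in these counts was not tested. With no filter, and in DESeq2, 14 cytotoxic and 5 NITR and DICP genes rose, since more genes were tested. Leaving out each library gave 1 to 2 T cell receptor genes lower and 1 to 2 NITR and DICP genes higher, and 2 T cell receptor genes fell without brain tumor 8 and normal brain 9 together. Scaled by library size alone, 2 pairs of members correlated past the threshold, against 0; the cause was not tested. Per summed pan-leukocyte CPM, 1 member had groups that did not overlap, against 2 per ptprc. Depth limits nkl.3, nkl.4 and cd79a, whose normal brain levels lie near 3 counts. Median shift over all genes was 0.21 with TMM, 0.02 with RLE factors and 0.11 with library size, so changes are relative to that shift.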
